A study of Drosophila montana with 12 samples.

Results

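The comparison described here sets females of isofemale line 3OL8 against females of isofemale lines 175OJ8 and 265OJ8 (the OJ8 lines) of *Drosophila montana*, all kept at the critical day length (CDL). Of the 12 libraries of the study, it uses the 6 from the CDL. They comprise 1 library of diapausing and 1 of nondiapausing 3OL8 females, against 2 libraries of diapausing and 2 of nondiapausing OJ8 females, with 1 library per line and state. Each library holds polyA RNA from 10 pooled whole females of 21 d of age, sequenced with SOLiD chemistry. The labels give the light cycle of these libraries as 17.5 h light and 5.5 h dark, which does not fill a day, whereas the methods of the study give a light phase that is 1 h longer. The other 6 libraries come from line 175OJ8 alone, as diapausing females from LD 16:8 and nondiapausing females from LD 22:2, and serve here only as libraries that the comparison did not use.

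An isofemale line descends from 1 fertilized wild female, so that its flies share much of their genotype and differ from other such lines wherever the founders differed. The 3 lines were founded from the same northern Finnish population and maintained in continuous light. *D. montana* females enter a photoperiodic reproductive diapause, in which the ovaries stay small and free of yolk, whereas nondiapausing females mature their eggs. The CDL is the light cycle at which females of a population split between the states, so that at the CDL both states can be sampled from each line under the same light. Expression was counted over contigs of a *de novo* transcriptome assembled by the authors. A contig is a stretch of assembled transcript that need not cover a whole gene, and several contigs can have the same best blast hit.

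Total read counts were 4679623 in the diapausing and 2986505 in the nondiapausing 3OL8 library, against 5489228 to 5970157 in the OJ8 libraries. The nondiapausing 3OL8 library had 54.2% of the median total of the 6 libraries, and a level of 1 CPM (reads scaled to a common library size) stood for 3.32 reads in it. It had 163 contigs at 0, against 13 to 40 in the nondiapausing OJ8 libraries. Levels are given as CPM after TMM scaling, which corrects for libraries whose reads are taken up by a few abundant transcripts, and are comparable between libraries for 1 contig but not between contigs of unequal length. Because 3OL8 is a line with 1 library per state, *P* values measure only the spread among these libraries, and nothing separates the line from the culture or collection that its females shared. In RNA from whole females, fewer cells of a type and less RNA per cell cannot be told apart.

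The diapause labels were checked with genes of reproduction. *Yp3* (contig_633), a yolk protein gene, had 205 CPM in diapausing and 944 CPM in nondiapausing 3OL8 females, against 503 and 303 CPM in diapausing and 1495 and 1042 CPM in nondiapausing OJ8 females. *Yp2* (contig_8009), also a yolk protein gene, had 79.1 CPM in diapausing and 393 CPM in nondiapausing 3OL8 females, against 126.7 and 57.7 CPM in diapausing and 454 and 446 CPM in nondiapausing OJ8 females. Both were lower in diapausing than in nondiapausing females of each line, as labeled. Neither passed the test for line, with log2 fold changes of -0.69 ± 0.26 and -0.21 ± 0.27 (SE) for 3OL8 over OJ8 and edgeR quasi-likelihood FDR of 0.44 and 0.866.

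In the fit with diapause state as a term, 245 of 31233 contigs (0.784%) were DE between 3OL8 and the OJ8 lines (edgeR quasi-likelihood test, FDR below 0.05). Of these, 146 contigs (0.467% of those tested) were higher and 99 (0.317%) were lower in 3OL8. Their median log2 fold changes were 1.86 and -2.06, beside a median of -0.04 over all contigs, and they reached from -5.43 to 8.41. Log2 fold changes of at least 4 were found for 22 of the higher contigs, and 7 of the lower contigs had -4 or less. Over all contigs, 1372 (4.39%) had both 3OL8 libraries above all 4 OJ8 libraries and 1251 (4.01%) had both below, and 128 of the 146 higher and 75 of the 99 lower contigs were among them. The DE contigs were called on these same 6 libraries, so their larger share follows from the choice and is a description.

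The count of DE contigs depended on which libraries entered. Without the nondiapausing 3OL8 library 152 contigs were DE, and without the diapausing 3OL8 library 76. Without the diapausing 265OJ8 library there were 162, and without the nondiapausing 265OJ8 library 383. A fit with isofemale line at 3 levels as a replicate block, which removes the difference between the OJ8 lines from the residual spread, gave 419, and the likelihood ratio test gave 429, including 240 of the 245.

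The pairwise contrasts of the lines, fitted with diapause state as a term, place this difference beside that between the OJ8 lines. Line 3OL8 differed from 175OJ8 at 468 contigs (1.5%), of which 310 were higher and 158 lower in 3OL8. It differed from 265OJ8 at 234 contigs (0.749%), with 115 higher and 119 lower in 3OL8. Line 265OJ8 differed from 175OJ8 at 33 contigs (0.106%), of which 19 were higher and 14 lower in 265OJ8. By the likelihood ratio test the counts were 792, 381, and 172 in the same order, so that the count between the OJ8 lines was over 5 times higher than by the quasi-likelihood test. The 3 contrasts share libraries, so the counts are given side by side without a test of their difference.

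**Figure D1:**
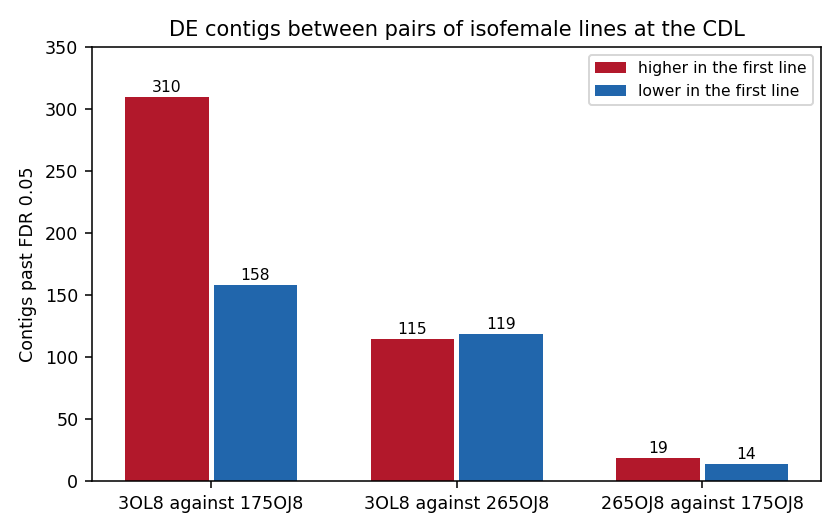
Number of contigs past an FDR of 0.05 (vertical axis) in each contrast between 2 isofemale lines, with contigs higher in the first-named line in red and lower in blue. The contrasts with 3OL8 hold 468 and 234 contigs and that between the OJ8 lines holds 33, by the quasi-likelihood test (792, 381, and 172 by the likelihood ratio test).

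Contigs were called strongly raised where both 3OL8 libraries had at least 10 times the highest OJ8 level and at least 10 reads, and near absent where both had at most 0.1 times the lowest OJ8 level and all 4 OJ8 libraries had at least 10 reads. Under these rules 15 contigs were strongly raised and 5 near absent in 3OL8, and all 20 were among the 245 DE contigs. The rules and the test use the same libraries, so this overlap is no separate support. The same rules applied to each of the other lines against the remaining 2 gave 0 raised and 0 near absent contigs for 175OJ8, and 3 raised and 0 near absent for 265OJ8. No near absent contig was at 0 in both 3OL8 libraries. The 10 contigs that were at 0 in both had no more than 5 reads in their lowest OJ8 library, below the 10 reads that the rule asks for. Whether they are absent from 3OL8 was not tested. The nearest contigs to the limits were contig_964, raised 10.5 times between its closest libraries, and contig_370, left out at 8.36 times. On the near absent side they were contig_28367 at 10.5 times and contig_18565, left out at 8.25 times.

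The contig with the smallest *P* value was contig_6492, whose hit is the predicted protein XP_002051875. It had 3201 CPM in the diapausing and 929 CPM in the nondiapausing 3OL8 library, against 33.3 and 35.55 CPM in diapausing and 20.9 and 17.7 CPM in nondiapausing OJ8 females. The 3OL8 females were thus 92.9 times the OJ8 mean in diapause and 48.2 times outside it, a log2 fold change of 6.09 ± 0.24 (SE, FDR of 1.36e-07). In the 6 libraries of 175OJ8 at LD 16:8 and LD 22:2 this contig had 14.5 to 34.4 CPM, within or just below its range in the OJ8 libraries at the CDL.

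The strongest relative rise belonged to contig_333, which had no blast hit. It had 1341 and 271 reads in the diapausing and nondiapausing 3OL8 libraries, against 2 to 4 reads in each OJ8 library. Its levels were 323.5 and 81.6 CPM in 3OL8, against 0.406 to 0.594 CPM in OJ8, and it had a log2 fold change of 8.41 ± 0.47 (SE, FDR of 1.36e-07). The OJ8 reads were so few that the size of the fold is loosely determined, while the groups were far apart in either state. A comparable contig without a hit, contig_3339, had 248 and 38 reads in the 3OL8 libraries, against 0 to 2 reads in the OJ8 libraries.

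Contigs with no hit were more frequent among the raised than among the tested contigs. They made up 1.03% of all contigs, 13 of the 146 higher contigs (8.9%), 4 of the 99 lower contigs (4.04%), and 5 of the 15 strongly raised contigs. Of all contigs with no hit, 5.3% were DE, beside 0.784% of all contigs. The 5 strongly raised contigs with no hit were contig_333, contig_1943, contig_814, contig_964, and contig_3339. In contig_1943, levels were 136 and 47.9 CPM in the 3OL8 libraries, against 0.447 to 2.03 CPM in the OJ8 libraries.

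**Figure D2:**
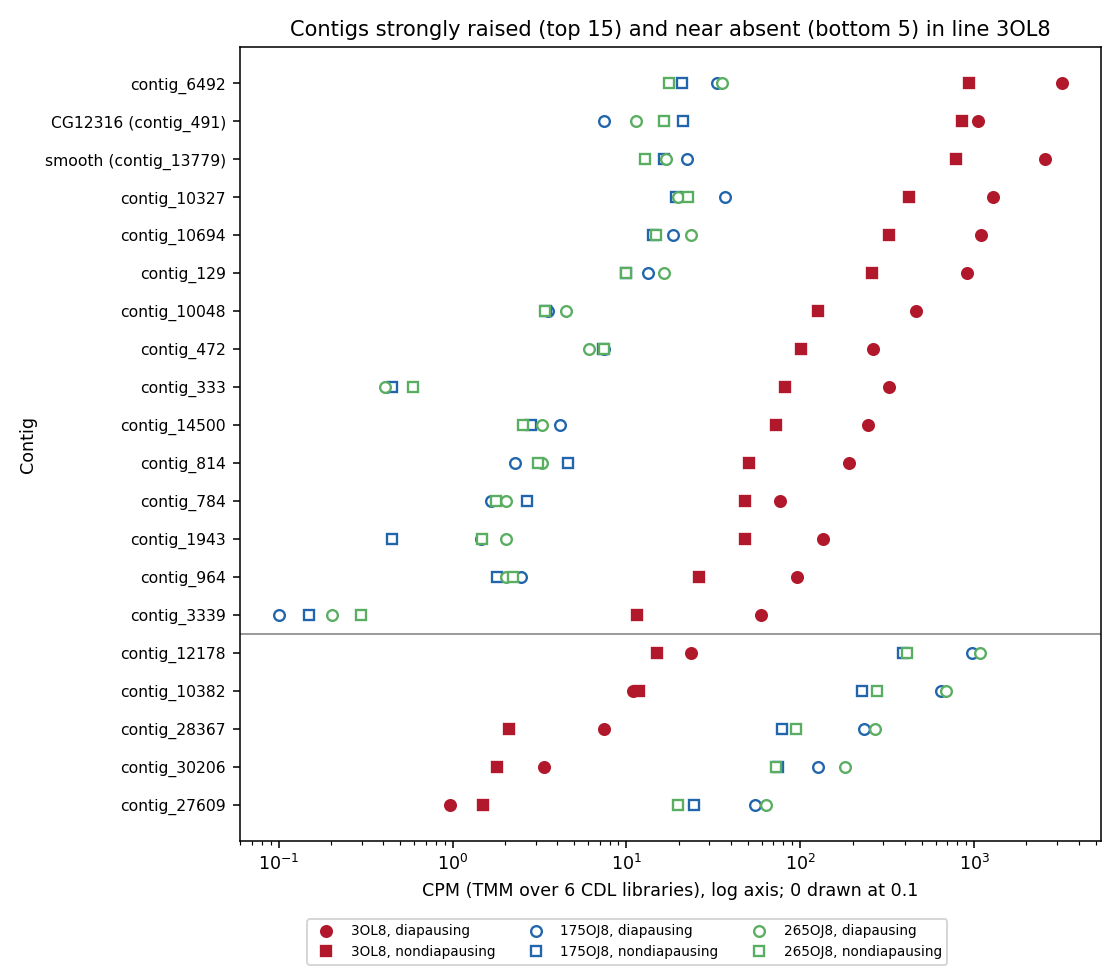
Level in CPM (log axis; a value of 0 is drawn at 0.1) of the 15 strongly raised contigs (top) and the 5 near absent contigs (bottom), with filled symbols for 3OL8 and open symbols for 175OJ8 and 265OJ8, circles for diapausing and squares for nondiapausing females. In every row the filled and open symbols are at least 10-fold apart, and in the raised rows the diapausing 3OL8 circle lies to the right of the nondiapausing square.

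Of the raised contigs, 2 carry a gene symbol from the tables of the study. Contig_13779, assigned to *smooth*, which in *D. melanogaster* encodes an RNA-binding protein, had 2570 and 789.5 CPM in diapausing and nondiapausing 3OL8 females, against 22.4 and 16.9 CPM in diapausing and 16.6 and 12.8 CPM in nondiapausing OJ8 females. Its log2 fold change was 6.43 ± 0.28 (SE, FDR of 2.41e-07). Contig_491, assigned to *CG12316*, had 1049 and 851 CPM in 3OL8, against 7.46 and 11.4 CPM in diapausing and 21.2 and 16.5 CPM in nondiapausing OJ8 females, with a log2 fold change of 6.17 ± 0.29 (SE, FDR of 3.33e-07). Both were high in 3OL8 in either state and low in each OJ8 library.

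Of the other strongly raised contigs, contig_10327 (hit XP_002054196) had 1285 and 421 CPM in 3OL8, against 19.2 to 36.7 CPM in OJ8. Contig_10694 (XP_002047271) had 1098 and 322 CPM, against 14.2 to 23.6 CPM in OJ8, and contig_14500 (ABD72267) had 244.6 and 72.2 CPM, against 2.52 to 4.14 CPM in OJ8. Contig_784 (FBgn0211546) had 76 and 47.9 CPM, against 1.66 to 2.68 CPM in OJ8. A further 3 contigs among the 10 with the smallest *P* values lay below the 10-fold limit in at least 1 pair of libraries. These were contig_25299 with 133.6 and 47.6 CPM against 2.24 to 7.31 CPM, contig_4782 with 1001 and 284 CPM against 12.7 to 41 CPM, and contig_527 with 309 and 97.5 CPM against 6.11 to 14.7 CPM.

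The raised contigs were mostly alike in how their level differed between the states in 3OL8. In this line the level in diapausing females over that in nondiapausing females had a median of 3.41 and ran from 1.23 to 5.23 over the 15 contigs, and 12 of them lay between 2.5 and 4. In OJ8 the same ratio had a median of 1.17 and ran from 0.456 to 1.8. The median over all contigs was 1 in 3OL8 and 1.07 in OJ8. Of the 15 raised contigs, 0 passed the quasi-likelihood test for a line by state interaction at an FDR below 0.05. In it 1008 of all contigs had an unadjusted *P* below 0.05, and the likelihood ratio test called 30. This unadjusted *P* was below 0.05 for contig_333 (0.0095), contig_14500 (0.0183), contig_10694 (0.0234), *smooth* (0.0279), and *CG12316* (0.0299). It was higher for contig_10327 (0.0599), contig_6492 (0.0699), contig_784 (0.0955), and contig_1943 (0.352). In each of these contigs the 3OL8 over OJ8 ratio was larger in diapausing females. Each ratio rests on 1 library per state in 3OL8. The ratio was taken up after the values had been seen, and its relation to depth or to any property of the 3OL8 libraries was not tested.

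The 5 near absent contigs were well covered in the OJ8 lines, with 134 to 5300 reads per library. Contig_12178 (hit XP_002054356) had 23.4 and 15.1 CPM in diapausing and nondiapausing 3OL8 females, against 976 and 1077 CPM in diapausing and 388 and 410 CPM in nondiapausing OJ8 females. It was 43.9 times lower in 3OL8 in diapause and 26.5 times lower outside it, with a log2 fold change of -5.09 ± 0.23 (SE, FDR of 8.54e-07). Contig_10382 (XP_002025857) had 10.8 and 11.7 CPM in 3OL8, against 641 and 693 CPM in diapausing and 228 and 277 CPM in nondiapausing OJ8 females (log2 fold change of -5.16 ± 0.31, FDR of 9.77e-06). Reads from these contigs were present in 3OL8 in both states, at 97 and 50 for contig_12178 and at 45 and 39 for contig_10382.

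The other 3 near absent contigs had few reads in 3OL8. Contig_30206 (FBgn0207646) had the lowest log2 fold change, -5.43 ± 0.32 (SE, FDR of 8.54e-07), with 14 and 6 reads in the 3OL8 libraries, against 487 to 888 reads in the OJ8 libraries. Contig_28367 (FJ614840) had 31 and 7 reads, against 528 to 1319 reads in OJ8. Contig_27609 (FBgn0198169) had 4 and 5 reads, against 134 to 312 reads in OJ8. In the OJ8 lines all 5 near absent contigs were higher in diapausing than in nondiapausing females, with ratios of 2.09 to 2.9, while in 3OL8 the ratios ran from 0.641 to 3.55 on these few reads.

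The remaining contigs with the smallest *P* values among those lower in 3OL8 were less depleted. Contig_3559 (AAY55135) had 6.75 and 4.51 CPM in 3OL8, against 48.8 to 141 CPM in OJ8, and contig_18892 (FBgn0202588) had 37.1 and 12.6 CPM, against 132.9 to 466.5 CPM. Contig_20380 (BK006338) had 6.51 and 6.02 CPM, against 48.2 to 135.1 CPM, and contig_11511 (XP_002052553) had 8.92 and 5.72 CPM, against 31.5 to 83.3 CPM. None of these 4 had overlapping groups.

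The libraries outside the comparison allow these levels to be set beside further females of 175OJ8 at other light cycles. For all 15 raised and all 5 near absent contigs, all 6 libraries from LD 16:8 and LD 22:2 lay on the OJ8 side of both 3OL8 libraries. Contig_12178, for example, had 322 to 1190 CPM in these 6 libraries and contig_333 had 0 to 0.691 CPM. Over all DE contigs, this held for 106 of the 146 higher and 75 of the 99 lower contigs. Among all contigs tested, both 3OL8 libraries lay above these 6 libraries for 2.62% and below them for 2.86%. Since the DE contigs were chosen against libraries that include 175OJ8 at the CDL, their higher share is a description. The light cycle of these libraries differs from that of the 3OL8 libraries, so that for them line and day length cannot be told apart.

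All 245 DE contigs had the same direction in the 2 states when the states were given separate coefficients, a property that the test for a shared line effect favors. Of the 146 higher contigs, 112 had the larger difference in diapausing females, and of the 99 lower contigs 53 did, beside 51.9% of all contigs with the larger absolute difference in that state. Within diapausing females 140 contigs (0.448%) were DE between 3OL8 and OJ8, 96 higher and 44 lower in 3OL8. Within nondiapausing females 76 (0.243%) were DE, 53 higher and 23 lower. These counts share 60 contigs, each in the same direction in both states, and each comparison sets 1 library against 2. Without either diapausing OJ8 library both counts fell to 0 by the quasi-likelihood test, while the likelihood ratio test called 298 and 345 contigs in diapausing and 157 and 160 in nondiapausing females, without 175OJ8 and without 265OJ8. At an unadjusted *P* below 0.05 there were 1593 and 2198 contigs in diapausing and 1371 and 1378 in nondiapausing females, and DESeq2 called 130 and 129, and 91 and 92. Of the 80 contigs DE in diapausing females alone, 9 passed the interaction test, and of the 16 DE in nondiapausing females alone, 8 did. For the rest a difference between the states was not shown. In the nondiapausing comparison, the low depth of the 3OL8 library limits what can be detected.

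**Figure D3:**
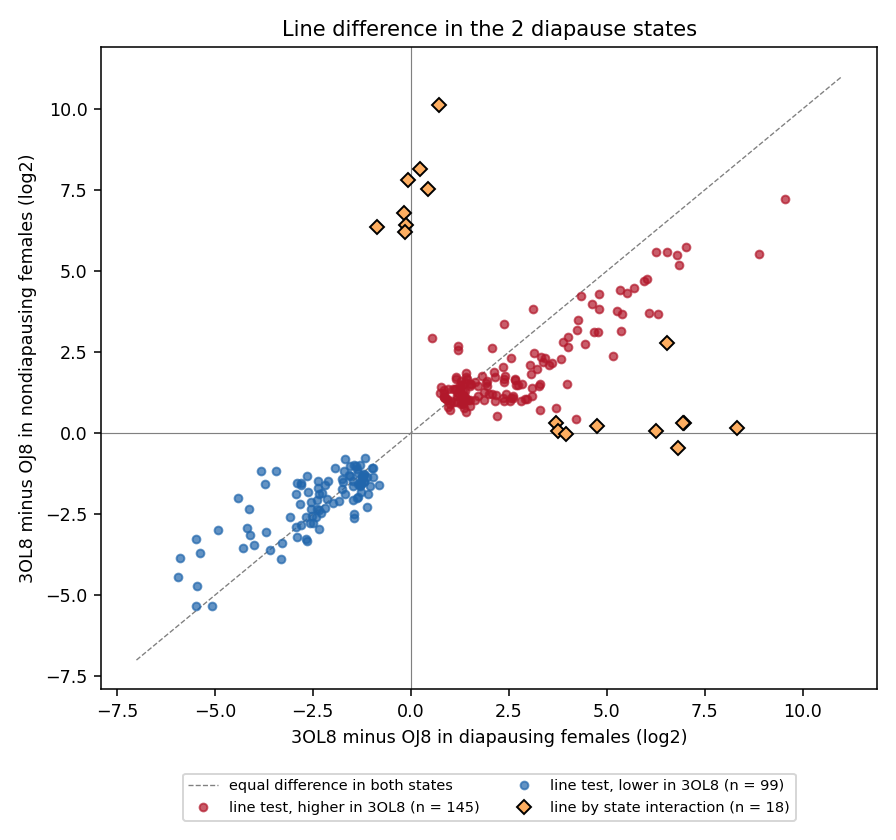
Log2 difference of 3OL8 from the OJ8 lines in diapausing females (horizontal axis) and nondiapausing females (vertical axis), for contigs higher (red) or lower (blue) in 3OL8 by the line test and for the 18 contigs with an interaction (orange diamonds, of which contig_18415 is also among the 146 higher contigs). The red and blue points lie in the quadrants of equal sign, whereas 17 diamonds lie along 1 of the axes and contig_18415 lies between them.

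A line by diapause state interaction was found for 18 contigs (0.0576%), of which 10 had the larger 3OL8 over OJ8 ratio in diapausing and 8 in nondiapausing females (edgeR quasi-likelihood test, FDR below 0.05). The contigs with the smallest *P* values were each high in 1 library. Contig_5856 (FBgn0206159) had 1551 CPM in the diapausing 3OL8 library and 10.2 CPM in the nondiapausing 3OL8 library, against 4.67 to 10.4 CPM in the 4 OJ8 libraries. Contig_16963 (XP_002056333) had 3985 and 9.93 CPM, against 13.4 to 38.5 CPM in OJ8. *ko* (contig_21960) had 1063 and 6.92 CPM, against 4.01 to 8.9 CPM in OJ8. Contig_20721 had 1062 and 12.9 CPM, against 11.3 to 14.8 CPM in OJ8, and contig_25083 had 665 and 4.51 CPM, against 3.13 to 5.69 CPM in OJ8. All 5 stood above the OJ8 range in the diapausing 3OL8 library alone. Reads summed over the contigs with the same hit were less far apart for contig_5856 (1802 and 167 CPM, against 187 to 271 CPM). The same held for contig_25083 (797 and 69.3 CPM, against 54.55 to 100 CPM). For *ko* the sum was 1073 and 17.4 CPM, against 15.3 to 24.5 CPM. For contig_20721 it was 1064 and 25.95 CPM, against 19 to 31 CPM.

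In the other direction, the nondiapausing 3OL8 library stood alone. *CG31633* (contig_20526) had 3.62 CPM in the diapausing and 1935 CPM in the nondiapausing 3OL8 library, against 2.69 to 6.98 CPM in OJ8. *MCPH1* (contig_16124), whose product acts at centrosomes and chromosomes, had 12.3 and 922 CPM, against 7.75 to 14.8 CPM in OJ8. *CG13384* (contig_23862) had 4.1 and 889 CPM, against 7.25 to 11.9 CPM in OJ8. Summed over the 4 contigs with the hit of *CG13384*, levels were 353 and 997 CPM in 3OL8, against 233 to 412 CPM in OJ8. For *CG31633* the sum over 2 contigs was 8.9 and 1905 CPM, against 7.42 to 19 CPM. Contig_2347 and contig_15129 had 15.9 and 15.4 CPM in the diapausing library and 1865 and 616 CPM in the nondiapausing library, against 7.16 to 19.9 and 7.72 to 19.3 CPM in OJ8. The same pattern held for *plexB* (contig_7028), a semaphorin receptor gene, with 11.1 and 5228 CPM against 6.01 to 34 CPM, and for *Best1* (contig_5970), a chloride channel gene, with 19.1 and 1219 CPM against 12.4 to 21.7 CPM.

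Of the 18 contigs, 16 were at least 10 times higher in 1 of the 12 libraries of the study than in each of the other 11, with 8 high only in the diapausing and 8 high only in the nondiapausing 3OL8 library. Such contigs were not particular to 3OL8, since every library had some, from 1 to 12 per library and 97 in all, with 10 in the diapausing and 8 in the nondiapausing 3OL8 library. With 1 3OL8 library per state, a difference between the states and a high value in 1 library cannot be told apart. Leaving out either diapausing OJ8 library, which leaves 1 residual degree of freedom, gave 0 interaction contigs by the quasi-likelihood test in both cases, 894 and 1186 at an unadjusted *P* below 0.05, 43 and 61 by the likelihood ratio test, and 24 and 34 by DESeq2. The first of each of these pairs is without the 175OJ8 library and the second without the 265OJ8 library. The interaction log2 fold changes of the 10 contigs chosen by *P* value moved by at most 0.31 in these fits. Their size is set by 1 high 3OL8 library, which these fits keep, so the small shift is no check of the interaction. Without the nondiapausing 175OJ8 library there were 30 calls.

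The interaction contig that was also DE for line was contig_18415 (FBgn0204958). It had 163.8 and 47.3 CPM in diapausing and nondiapausing 3OL8 females, against 1.66 and 1.83 CPM in diapausing and 5.67 and 8.02 CPM in nondiapausing OJ8 females. It was high in 3OL8 in both states, with a log2 fold change of 6.53 in diapausing and 2.78 in nondiapausing females, and the difference between them was 3.75 ± 0.50 (SE, interaction FDR of 0.0216).

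The study lists contigs with gene symbols in tables of genes of neurons, ion transport, reproduction, and metabolism. These 72 contigs were chosen by the study on the same libraries for their response to day length, and all LD 16:8 and LD 22:2 libraries were of line 175OJ8, so they are not independent evidence about line. Of the 72, 4 (5.56%) were DE between 3OL8 and OJ8, 3 higher and 1 lower, beside 0.784% of all contigs, and the median log2 fold change was 0.05, beside -0.04 over all contigs. By table, 3 of 20 neuron contigs, 2 of 20 reproduction contigs, and 2 of 46 metabolism contigs were DE, with some contigs in several tables. Among 10 ion transport contigs 0 were DE by the quasi-likelihood test, 6 had an unadjusted *P* below 0.05, and the likelihood ratio test called 2. Over all 31233 contigs, 2877 had such an unadjusted *P* and the likelihood ratio test called 429. The 6 include *Best1* and *CG13384*, whose contigs were high in the nondiapausing 3OL8 library alone. They also include *para* (contig_5578), which was high in the diapausing 175OJ8 library alone. Its level there was 136.9 CPM, against 1.04 to 7.52 CPM in the other CDL libraries. The interaction test called 6 of the 72 (8.33%, beside 0.0576% of all contigs), all named above (*ko*, *CG31633*, *MCPH1*, *CG13384*, *plexB*, and *Best1*), and 34 of the 72 (47.2%, beside 0.311% of all contigs) belonged to the 97 contigs that were high in 1 library.

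Beside *smooth* and *CG12316*, the DE contigs with a symbol were *Abl* and *Lsp2*. *Abl* (contig_9106), a tyrosine kinase gene, had 49.2 and 22.3 CPM in diapausing and nondiapausing 3OL8 females, against 4.76 and 6.7 CPM in diapausing and 11.3 and 8.61 CPM in nondiapausing OJ8 females. Its log2 fold change was 2.17 ± 0.34 (SE, FDR of 0.00804). The groups did not overlap, but the call was lost without the diapausing 3OL8 library (log2 fold change of 1.16, FDR of 0.704) and without the diapausing 265OJ8 library (2.04, FDR of 0.0729). Reads summed over the 4 contigs with the hit of *Abl* gave a log2 fold change of 0.76 ± 0.27 (SE, FDR of 0.349).

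*Lsp2* (contig_653), which encodes a storage protein of the fat body, was lower in 3OL8. It had 2477 CPM in diapausing 3OL8 females, against 5738 and 5098 CPM in diapausing OJ8 females, and 199.6 CPM in nondiapausing 3OL8 females, against 1212 and 732 CPM in nondiapausing OJ8 females. The log2 fold change was -1.66 ± 0.28 (SE, FDR of 0.0218). Within each state 3OL8 was below both OJ8 libraries, while the groups overlapped across states, since *Lsp2* was higher in diapausing than in nondiapausing females of each line. The call was lost without the diapausing 3OL8 library (-2.28, FDR of 0.0952), without the nondiapausing 3OL8 library (-1.06, FDR of 0.655), and in the fit over all 12 libraries (-1.64, FDR of 0.328), where the libraries of 175OJ8 at the other light cycles ran from 32.1 to 6232 CPM.

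*dpp* (contig_19630), a gene of the TGF-beta family, was chosen after its values were seen, because its levels separated the OJ8 lines. It had 243.6 and 103.8 CPM in diapausing and nondiapausing 3OL8 females, against 206.8 and 70.7 CPM in 265OJ8 and 13.5 and 5.82 CPM in 175OJ8. The 6 libraries of 175OJ8 at LD 16:8 and LD 22:2 had 6.08 to 13.5 CPM. Line 3OL8 was above 175OJ8 by 4.17 ± 0.24 on the log2 scale (SE, edgeR quasi-likelihood FDR of 1.82e-06), and 265OJ8 was above 175OJ8 by 3.78 ± 0.24. The difference of 3OL8 from 265OJ8 was 0.39 ± 0.21 (FDR of 0.724), and the test of 3OL8 against both OJ8 lines did not call the contig (log2 fold change of 1.29 ± 0.83, FDR of 0.662). The contig was called with line as a replicate block (2.28, FDR of 1.58e-05) and in the fit over all 12 libraries (2.29, FDR of 4.13e-07), in which 3OL8 is set against the mean of the OJ8 lines and the difference between those lines does not enter the residual spread. Contig_15718, which has the same hit, had 34 and 16 reads in diapausing and nondiapausing 3OL8 females, against 44 and 42 in 265OJ8 and 21 and 32 in 175OJ8.

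**Figure D4:**
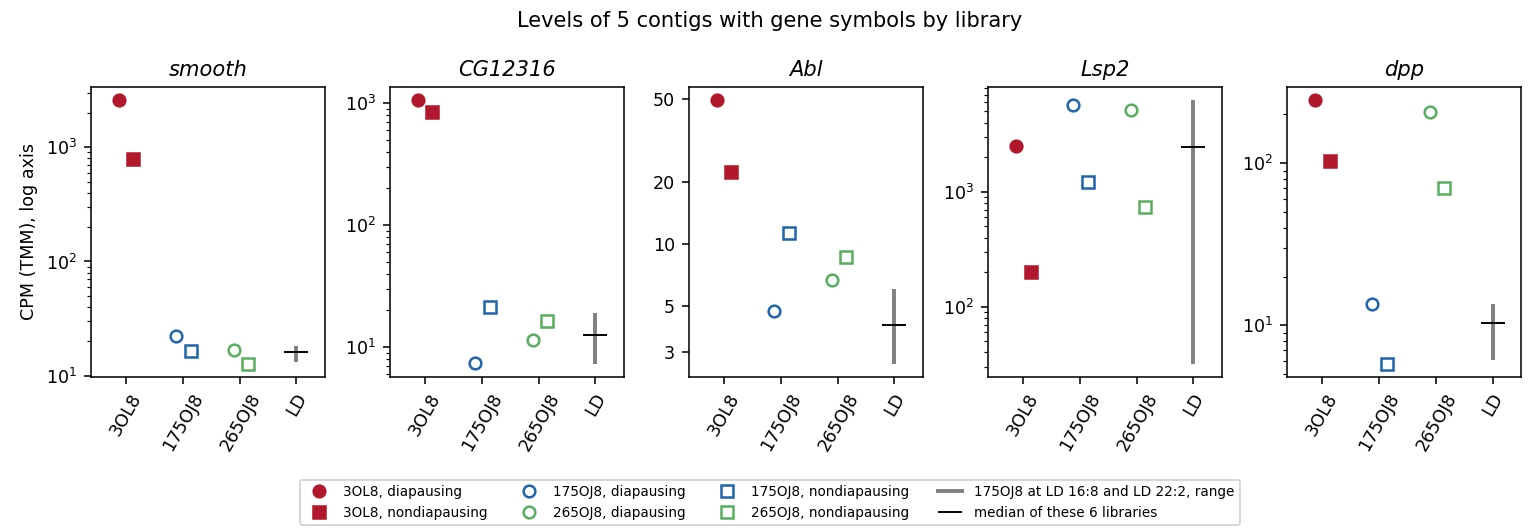
Level in CPM (log axis) of 5 contigs with gene symbols in 3OL8 (filled), 175OJ8, and 265OJ8 (open) at the CDL, circles for diapausing and squares for nondiapausing females, with the range and median (scaled over 12 libraries) of 6 libraries of 175OJ8 at LD 16:8 and LD 22:2. The contigs of *smooth*, *CG12316*, and *Abl* are high in 3OL8 alone. That of *Lsp2* is lower in 3OL8 within each state, and that of *dpp* is low in 175OJ8 alone. Other contigs with the hits of *CG12316*, *Abl*, and *dpp* are not drawn.

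Because contigs are not genes, each DE contig was set beside the other contigs with the same hit. Of the 245, 197 had a hit counted as gene-level by the form of its identifier. The form does not show that such a hit is a single gene. Of these 197, 124 (62.9%) shared the hit with at least 1 other contig, beside 63.9% of all contigs with such a hit. For 108 of the 124 (87.1%, beside 97.9% of all contigs that share such a hit), none of the others was DE, for 11 another was DE in the same direction, and for 12 another was DE in the opposite direction, where a contig with partners of both kinds is counted under each. Among the strongly raised contigs, 8 shared their hit with 26 further contigs, of which 0 were DE, too few contigs to be read against the 0.784% of all contigs that were DE. Contig_6492 had 2 such partners, contig_11155 with 9.91 CPM in 3OL8 against 13.2 CPM in OJ8, and contig_26070 with 5.51 CPM against 7.8 CPM (means over libraries).

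There were 4 hits with contigs DE in both directions. Under EU493621, contig_12723 had 124.2 and 46.4 CPM in diapausing and nondiapausing 3OL8 females, against 620 to 1482 CPM in OJ8 (log2 fold change of -3.58 ± 0.24, SE, FDR of 2.07e-05). In contig_22336, with the same hit, 3OL8 had 3179 and 780 reads, against 96 to 154 reads in OJ8 (log2 fold change of 4.34 ± 0.26). Contig_12723 was thus low and contig_22336 high in 3OL8. Summed over the 5 contigs of this hit, levels were 1867 and 578 CPM in 3OL8, against 1386 and 1982 CPM in diapausing and 903 and 1024 CPM in nondiapausing OJ8 females, and the log2 fold change of the sum was -0.27 ± 0.24 (SE, FDR of 0.76).

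The hit EU493880 had a like arrangement over its 5 contigs. Contig_7592 was higher in 3OL8, at a mean of 372 against 24.4 CPM, whereas contig_2864 was lower, at 154.2 against 806.5 CPM, as were contig_17737 at 12.1 against 121.7 CPM and contig_15761 at 10 against 42.7 CPM. The sum had a log2 fold change of -0.69 ± 0.19 (SE, FDR of 0.223). Under JN019871, with 8 contigs, 1 rose and 1 fell and the sum changed by -0.23 ± 0.20 (FDR of 0.749). Under XP_002047453 the sum remained higher in 3OL8, by 1.83 ± 0.19 (FDR of 0.000268), carried by contig_397 with 1134 CPM against 200.6 CPM.

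**Figure D5:**
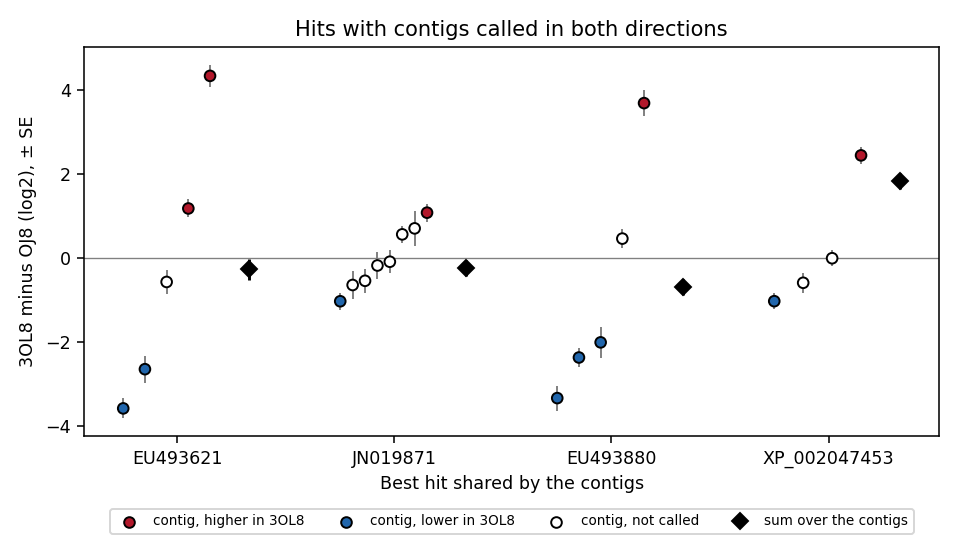
Log2 difference of 3OL8 from the OJ8 lines (± SE, vertical axis) for each contig of the 4 hits that had contigs DE in both directions, with higher contigs in red, lower in blue, and others in white, beside the same difference for the reads summed over the contigs (black diamonds). The sums of EU493621, JN019871, and EU493880 lie between -0.69 and -0.23, and that of XP_002047453 lies at 1.83.

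When reads were summed over all contigs with the same hit before the fit, 19801 sums were tested and 177 were DE, 97 higher and 80 lower in 3OL8. Among the 114 hits that had several contigs and at least 1 DE contig, the sum was DE for 51. Such a sum includes the reads of the DE contig itself, so this count is not independent of the contig test. The sums that remained far apart included that of XP_002051875, the hit of contig_6492, with a log2 fold change of 5.34 ± 0.39 (SE), that of XP_002054196, the hit of contig_10327, with 4.31 ± 0.26, and that of XP_002025857, the hit of contig_10382, with -4.63 ± 0.27. These 3 sums were carried by the DE contig, which held most of the reads where it was high, and no other contig of these hits was DE. For *CG12316* the sum over 3 contigs was 1178 and 947 CPM in 3OL8, against 366.6 and 158.3 CPM in diapausing and 142.7 and 137 CPM in nondiapausing OJ8 females. The log2 fold change of this sum was 2.47 ± 0.29, below the 6.17 of contig_491. Sums also lay closer to no change than the named contig for other hits. They were 2.08 ± 0.24 beside 5.13 for contig_10694, 2.63 ± 0.37 beside 5.44 for contig_14500, and 3 ± 0.25 beside 4.32 for contig_527. Among lower contigs they were -1.98 ± 0.21 beside -3.6 for contig_18892 and -1.12 ± 0.19 beside -2.86 for contig_11511.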

How the data were processed

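RNA-seq was measured in 12 libraries, of which the 6 CDL libraries were compared here. The authors trimmed SOLiD reads, removed nonarthropod contigs from their *de novo* assembly and used it as the mapping reference in CLC Genomics Workbench. The counts they deposited are raw reads mapping uniquely to each contig, made with HTSeq (version not given in the sources used here). A gene's reads can be split between contigs of the same hit, and whether both reads of a fragment were counted is not stated. Samples were grouped by line and diapause state as the labels give them. The members, gene lists and tests were chosen with earlier results of these data known.

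All 31233 contigs with a read in the 6 libraries were tested with the quasi-likelihood test of edgeR 4.0.16 (R 4.3.3, limma 3.58.1) after TMM normalization, with a prior count of 0.125 and Benjamini-Hochberg adjustment (FDR threshold of 0.05). The methods of the study state no test of lines. The line fit had diapause state as a term and 3 residual degrees of freedom, and the interaction fit had 2. The biological coefficient of variation was 0.204, and total reads of 2986505 to 5970157 limit contigs with few reads. Fold changes have the standard error of the GLM on the log2 scale. The script was tested on simulated data. A further count rule of 10-fold in 1 library, the sums over hits and the naming of *dpp* were chosen after seeing the data.

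The contigs named were, in each direction, the 10 with the lowest line *P* and 3OL8 beyond both OJ8 libraries within each state, the 5 raised and 5 near absent contigs with the highest limiting level, the 5 with the lowest interaction *P* in each direction, every table contig DE for line, and *Yp2*, *Yp3*, and *Lsp2*. Other contigs were named after their values were seen. Symbols come from tables of the study. The 15189 distinct hits were compared with a RefSeq table of 15263 *D. montana* genes, and 0 matched, so no sequence was printed.

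Alternatives were the likelihood ratio test, the Wald test of DESeq2 1.42.0, RLE normalization, library size without factors, filterByExpr with a minimum count of 10, counts thinned to the lowest total (seed 20), a prior count of 2, all 12 libraries, line as a replicate block, other limits for raised and near absent contigs, and each library left out in turn. The labels link the diapausing and nondiapausing libraries of a line by its name. The difference of 175OJ8 from 265OJ8 in diapausing females had a correlation of 0.107 across contigs with that in nondiapausing females.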

Additional observations from a re-analysis of the deposited data

Results flagged for a closer look

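By the interaction test of edgeR, the line difference of 14 named contigs was called unequal between the diapausing and nondiapausing libraries. Values are the 3OL8 over OJ8 log2 fold change in diapausing minus that in nondiapausing females. Differences were positive for contig_5856 (8.17), contig_16963 (7.28), contig_25083 (6.68), *ko* in contig_21960 (6.63), contig_20721 (6.19), and contig_18415 (3.75). They were negative for contig_17523 (-9.41), *CG31633* in contig_20526 (-7.91), contig_2347 (-7.88), *CG13384* in contig_23862 (-7.22), *plexB* in contig_7028 (-7.08), *MCPH1* in contig_16124 (-6.97), *Best1* in contig_5970 (-6.53), and contig_15129 (-6.36). Contig_17523, not described above, had 2.9 CPM in the diapausing and 1361 CPM in the nondiapausing 3OL8 library, against 0.596 to 2.48 CPM in the OJ8 libraries. Each of these differences rests on 1 library of 3OL8 in each state, and 16 of all 18 interaction calls were of contigs high in 1 library. A difference between the states and a high value in 1 library therefore cannot be told apart here.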

How the results depend on the processing

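RLE normalization, library size without factors, filterByExpr, and thinned counts kept each count of DE contigs within 1.5 times. The likelihood ratio test gave 429 contigs for line, 30 for the interaction, 263 in diapausing and 127 in nondiapausing females, 13 of the table contigs, and 792, 381, and 172 for 3OL8 against 175OJ8, 3OL8 against 265OJ8, and 265OJ8 against 175OJ8. The replicate block gave 419 contigs for line and 8 table contigs, DESeq2 gave 8 table contigs, and all 12 libraries gave 9. The cause was not tested. With limits of 5-fold, 13 contigs were near absent and 28 strongly raised, and with limits of 20-fold 1 and 7. Leaving out the contigs high in 1 library, an alternative added after seeing the data, gave 0 interaction contigs by edgeR (989 at an unadjusted *P* below 0.05, 8 by the likelihood ratio test and 2 by DESeq2). Since 16 of the 18 calls are such contigs, this loss follows from the choice and is no check of the interaction. Over the libraries left out in turn, counts ran from 76 to 383 for line, 0 to 30 for the interaction, 0 to 152 in diapausing and 0 to 82 in nondiapausing females, 3 to 7 for table contigs, 5 to 13 for near absent, and 15 to 43 for strongly raised contigs. The within-state counts of 0 arose without either diapausing OJ8 library, where the likelihood ratio test called 298 and 345 contigs in diapausing and 157 and 160 in nondiapausing females, and 1593 and 2198, and 1371 and 1378, had an unadjusted *P* below 0.05. Near absent and raised contigs were most numerous with 1 3OL8 library left. The interaction could not be fitted without a 3OL8 library. Of 523 values for 37 named fold changes, 495 kept direction and side of the threshold, 25 lost the call (20 of the interaction contigs, without a diapausing OJ8 library, 2 of *Abl*, and 3 of *Lsp2*), and 2 gained it (*dpp*, 2.28 with the replicate block and 2.29 over 12 libraries). Only *Yp2*, which was never DE, changed sign, from -0.40 to 0.082 over the libraries left out. Contig_333 and contig_1943 had no value under filterByExpr, which removed them. Depth limits contigs with few reads in the nondiapausing 3OL8 library.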
